A study of Homo sapiens with 6 samples.

Results

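The 10 genes described here are transcriptional targets of the tumour suppressor p53: CDKN1A, BTG2, GADD45A, MDM2, PURPL, TP53INP1, FAS, ZMAT3, SESN1 and RRM2B. They were chosen by name, with the result of the comparison below already known, and each matched 1 of the 57773 Ensembl gene IDs of the deposited count table. RNA came from U251, an established human glioblastoma line, in 2 groups of 3 dishes. The first group was a line stably transduced by lentivirus with PD-L1 (gene CD274), a membrane protein that binds PD-1 on T cells. Its control was a line transduced by lentivirus with the vector alone. All 6 dishes were grown in DMEM with 10% fetal bovine serum and harvested 12 h after passage. Each group was 1 stable line, so the spread between dishes does not include the spread between independent transductions.

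p53 is a transcription factor that is stabilised by DNA damage and other stresses. It activates genes that halt the cell cycle, repair DNA, adjust metabolism or start apoptosis, and also genes that restrain p53 itself, such as MDM2. Many of these genes keep a basal level without stress and also answer to other factors.

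p53 binds a tandem of 2 adjacent decamers, each with C and G around a pair of A or T bases, 3 purines before them and 3 pyrimidines after. RefSeq promoter windows (GRCh38.p14, from 250 bases before to 50 after a transcription start) matched 7 of the 10 genes. TP53INP1, RRM2B and GADD45A had no entry. The best match to this 20-base consensus was located in each window, without a spacer. The decamer reads the same on both strands. The sequences below are shown because they hold the closest matches, and capitals mark each 20-base stretch within 3 mismatches of the consensus.

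PURPL: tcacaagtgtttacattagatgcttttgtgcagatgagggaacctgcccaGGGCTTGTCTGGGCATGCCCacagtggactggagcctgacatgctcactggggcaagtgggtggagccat

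MDM2: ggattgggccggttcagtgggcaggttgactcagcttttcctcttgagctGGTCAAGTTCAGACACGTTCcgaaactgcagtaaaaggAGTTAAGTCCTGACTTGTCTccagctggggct

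FAS: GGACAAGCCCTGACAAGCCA

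SESN1: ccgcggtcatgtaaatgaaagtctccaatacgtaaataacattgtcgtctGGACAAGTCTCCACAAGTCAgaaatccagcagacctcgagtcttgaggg

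The stretch in PURPL (chr5:27472115-27472234, plus strand) matched the consensus with 0 mismatches and was centred 117 bases before the start. Of all 35116 windows, 6 held such a match (0.0171%). The MDM2 sequence (chr12:68808873-68808992, plus strand) lies in an intron, its closer stretch centred 84 bases before a start inside the gene, and its 2 stretches had 2 and 3 mismatches. The FAS stretch (chr10:88991309-88991328, plus strand) had 2 mismatches and overlaps an exon in GENCODE 29. Matches with at most 2 mismatches were found in 0.649% of all windows. The SESN1 sequence (chr6:109008989-109009087, minus strand) had 3 mismatches, all in its second decamer, and lies in an intron of the annotated gene. Matches with at most 3 were found in 5.2% of all windows. No stretch within 3 mismatches was found in the windows of BTG2, CDKN1A and ZMAT3. Sites outside the windows, or with a spacer between the decamers, were not searched for, so a p53 site elsewhere is not excluded. Of the 71 other p53 targets considered below, 58 had a window, and 5 of these held a match within 2 mismatches and 16 within 3. Counted per gene, by its best window, 0.82% and 6.39% of all 27305 genes held one.

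Total counts per dish lay between 15678989 and 22270509. CD274 had 26827, 22001 and 23046 counts in PD-L1 dishes 1 to 3, against 34, 71 and 41 in Vector dishes 1 to 3. Every dish thus matched its label as PD-L1 or Vector. The identity of the cell line was not tested. PD-L1 dish 3 stood apart: chi-square per degree of freedom over genes was 14.8 and 16.1 for its pairs with PD-L1 dishes 2 and 1. It was 3.03 between PD-L1 dishes 1 and 2, and 5.25 to 10.1 between Vector dishes. Of 9 astroglial and glioma markers, 7 had a mean of at least 1 CPM (counts relative to library size, scaled by the TMM method), with the summed level of the list at 987 to 1120 CPM in PD-L1 dishes and 1370 to 1500 CPM in Vector dishes. GFAP, the defining astrocyte filament gene, was at 1.45 to 1.85 CPM in PD-L1 dishes and 2.75 to 3.82 CPM in Vector dishes, and the astrocyte water channel AQP4 was below 0.5 CPM in every dish. Immune markers summed to 2.29 to 2.52 CPM in PD-L1 dishes and 1.86 to 3.01 CPM in Vector dishes. The summed level of 4 neuronal markers was 15 to 18 CPM in PD-L1 dishes and 14.5 to 16.7 CPM in Vector dishes, that of 4 oligodendrocyte markers 5.09 to 5.9 and 7.64 to 9.34 CPM, and that of 3 endothelial markers 2.68 to 3.75 and 2.98 to 4.04 CPM. The lower astroglial and oligodendrocyte levels in PD-L1 dishes moved with the comparison, and their part in the results was not tested.

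The 10 genes differed in the size of their change, and 9 of them had a log2 fold change above 0. Set against Vector dishes, PD-L1 dishes had more of 5 of them: PURPL, TP53INP1, BTG2, MDM2 and SESN1 were 1.33-fold to 1.74-fold higher, past a false discovery rate (FDR) of 0.05 in edgeR's quasi-likelihood test over all 15818 genes tested. CDKN1A, GADD45A, FAS, ZMAT3 and RRM2B did not pass, with log2 fold changes from -0.06 to 0.21. Of all genes tested, 1.55% were called higher and 7.2% lower (8.75% in either direction, 245 higher and 1139 lower). When an offset corrected each dish for GC content and length of transcripts, the split was 645 higher (4.08%) and 1465 lower (9.26%). For 4 of the 5 the groups did not overlap, as for 12.1% of all genes with PD-L1 dishes higher and 15.5% with PD-L1 dishes lower. Since these genes were named with this contrast known, their calls are given as a description and nothing is read from the count. Their median log2 fold change was 0.31, beside 0.02 over all genes tested. In bulk RNA, fewer cells that express a gene and less RNA per cell cannot be told apart.

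**Figure D1:**
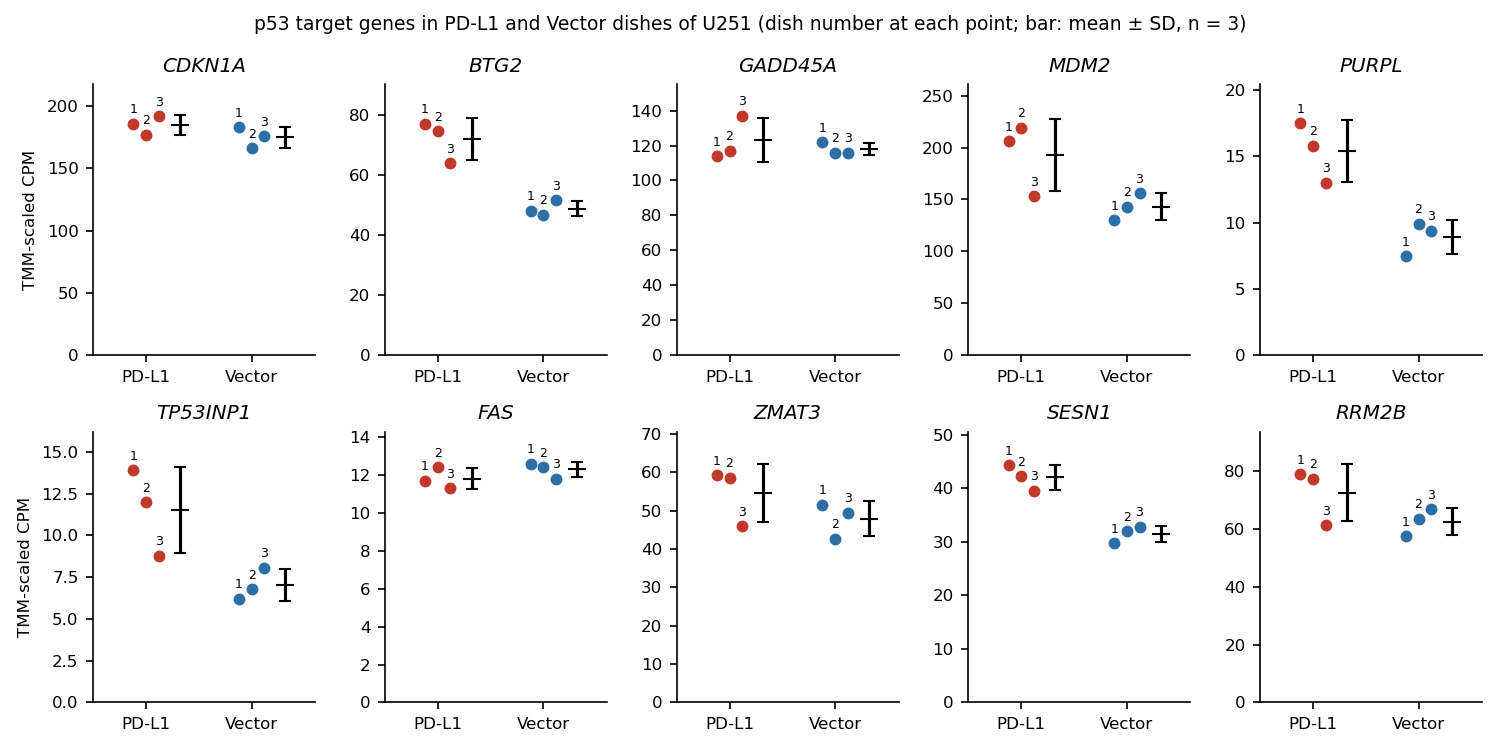
TMM-scaled CPM of each p53 target gene (vertical axes, from 0) in the 3 PD-L1 dishes (red) and the 3 Vector dishes (blue), with the dish number at each point and the mean ± SD beside them. PURPL, TP53INP1, BTG2 and SESN1 do not overlap between groups, while PD-L1 dish 3 lies within the Vector range for MDM2, ZMAT3 and RRM2B.

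Among the genes that halt the cell cycle, BTG2 was higher and CDKN1A and GADD45A were not called. BTG2 encodes an antiproliferative adaptor of the CCR4-NOT deadenylase. It was at 77.1, 74.6 and 64 CPM in PD-L1 dishes 1 to 3, against 48.1, 46.8 and 51.6 CPM in Vector dishes 1 to 3. Every PD-L1 dish was above every Vector dish, with dish 3 the lowest of the PD-L1 group. This gave a log2 fold change of 0.56 ± 0.09 (SE), a 1.47-fold higher level.

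CDKN1A encodes p21, the cyclin-dependent kinase inhibitor through which p53 arrests cells in G1. It was at 186, 177 and 192 CPM in PD-L1 dishes, against 183, 166 and 176 CPM in Vector dishes. The groups overlapped, and the log2 fold change was 0.08 ± 0.07, or 0.14 ± 0.05 with the offset. GADD45A, a stress sensor that binds PCNA and p21, was at 114, 117 and 137 CPM in PD-L1 dishes, against 122, 116 and 116 CPM in Vector dishes. PD-L1 dish 3 alone was above the Vector range. Its log2 fold change was 0.06 ± 0.08, and turned to -0.03 without that dish.

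Both feedback genes on p53 were higher. MDM2 is the ubiquitin ligase that marks p53 for degradation. It was at 206, 219 and 153 CPM in PD-L1 dishes, against 130, 143 and 156 CPM in Vector dishes. PD-L1 dishes 1 and 2 were above all Vector dishes, but dish 3 was below Vector dish 3, so the groups overlapped. The log2 fold change was 0.43 ± 0.12, and 0.57 ± 0.07 without PD-L1 dish 3. The call ended when PD-L1 dish 1 (0.38) or 2 (0.34) was left out, and likewise for Vector dish 1 (0.37) or 2 (0.43).

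PURPL is a long noncoding RNA, known as a p53-induced transcript that lowers basal p53 levels through the protein MYBBP1A. Its raw counts reached 359, 257 and 242 in PD-L1 dishes, against 162, 203 and 174 in Vector dishes. These corresponded to 17.5, 15.8 and 13 CPM in PD-L1 dishes and 7.46, 9.92 and 9.37 CPM in Vector dishes. The groups were apart, and the PD-L1 dish nearest to them was again dish 3. Of the 10 genes PURPL had the largest log2 fold change, 0.80 ± 0.14, or 1.74-fold. The value was 0.62 ± 0.12 with the offset, and its call was kept when any 1 dish was left out. Of the 10 genes, this held for PURPL and BTG2. Over all 15818 genes tested, 453 were called, in either direction, in the fit of all dishes and in each of those 6 fits. In the fit without Vector dish 1, 35 of 16150 genes were called higher and 510 lower. The promoter with the exact match to the p53 consensus shown above is that of PURPL. Binding of p53 was not measured, and the part of this match in the change was not tested.

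**Figure D2:**
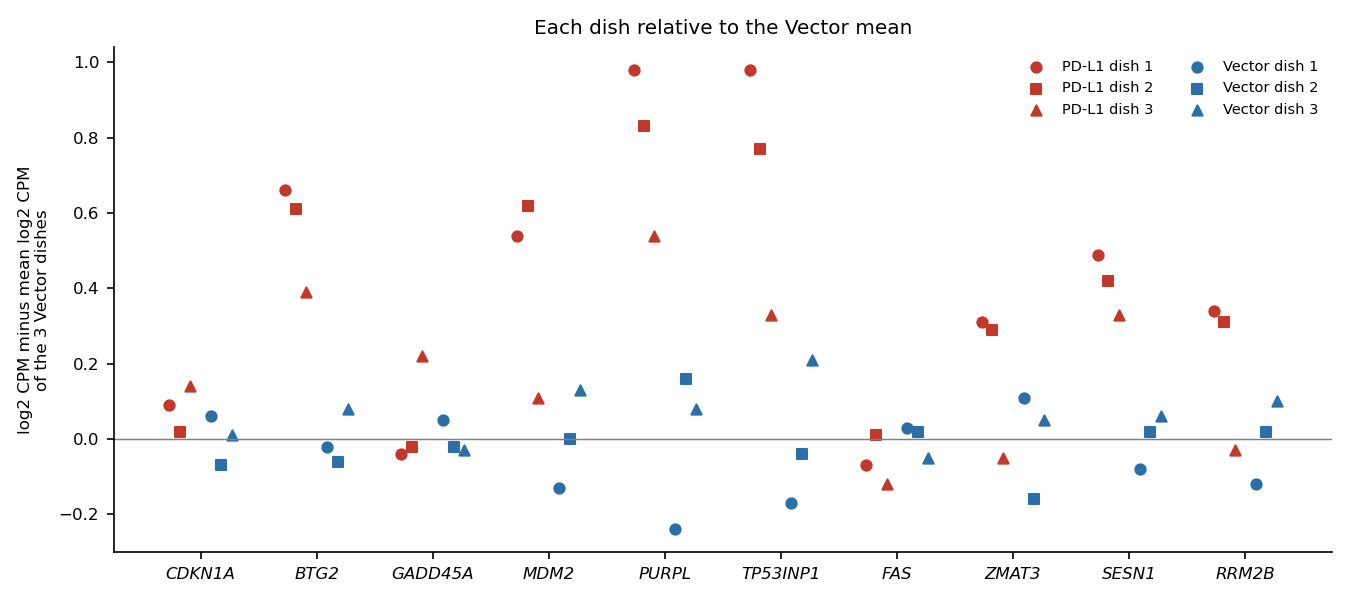
log2 CPM of each dish minus the mean of the 3 Vector dishes (vertical axis) for each gene, PD-L1 dishes in red and Vector dishes in blue, with a symbol for each dish number. In PD-L1 dish 3 PURPL stood 0.54 above the Vector mean and TP53INP1 0.33, against 0.98 for both in PD-L1 dish 1.

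Of the genes of cell death, TP53INP1 was higher, and FAS and ZMAT3 were not called. TP53INP1 encodes a stress protein that takes part in p53-dependent apoptosis and in autophagy. It was at 13.9, 12 and 8.78 CPM in PD-L1 dishes, against 6.21, 6.79 and 8.07 CPM in Vector dishes. The groups did not overlap, though PD-L1 dish 3 lay close to Vector dish 3. On the log2 scale it was 0.72 ± 0.17 higher, or 1.65-fold. Leaving out Vector dish 1 (0.64), Vector dish 2 (0.70) or PD-L1 dish 1 (0.56) ended the call.

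FAS, the death receptor for FAS ligand, was at 11.7, 12.4 and 11.3 CPM in PD-L1 dishes, against 12.6, 12.4 and 11.8 CPM in Vector dishes. The groups overlapped and the log2 fold change was -0.06 ± 0.11, or -0.18 ± 0.10 with the offset. ZMAT3 encodes a zinc-finger RNA-binding protein that acts in p53-dependent growth suppression and splicing. It was at 59.2, 58.6 and 46 CPM in PD-L1 dishes, against 51.5, 42.7 and 49.5 CPM in Vector dishes. PD-L1 dishes 1 and 2 were above all Vector dishes and dish 3 was within their range. Its log2 fold change was 0.19 ± 0.11, and 0.30 ± 0.08 without PD-L1 dish 3, where ZMAT3 passed the FDR.

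The remaining genes serve metabolism and DNA synthesis. SESN1, sestrin 1, restrains the growth kinase complex mTORC1 and limits oxidative stress. It was at 44.3, 42.3 and 39.6 CPM in PD-L1 dishes, against 29.8, 32 and 32.8 CPM in Vector dishes. The groups were well apart, and the spread was narrow, with a coefficient of variation of 5.54% in PD-L1 and 4.87% in Vector dishes. The log2 fold change was 0.42 ± 0.08, and the call was lost without Vector dish 1 (0.38 ± 0.09).

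RRM2B encodes the p53-inducible small subunit of ribonucleotide reductase, which supplies deoxynucleotides for repair and for mitochondrial DNA. It was at 79, 77.3 and 61.2 CPM in PD-L1 dishes, against 57.4, 63.5 and 66.8 CPM in Vector dishes. As for ZMAT3, PD-L1 dishes 1 and 2 were above the Vector range and dish 3 was within it. The log2 fold change was 0.21 ± 0.10, and 0.32 ± 0.08 without PD-L1 dish 3, where RRM2B passed the FDR. The offset lowered it to 0.11 ± 0.07. In the fit without PD-L1 dish 3, 7 of the 10 genes were called, all higher, beside 7.81% of all genes called higher and 13.8% lower. Without PD-L1 dish 1 or 2, 3 and 4 of the 10 were called higher, beside 0.286% and 0.427% of all genes. Without Vector dish 1, 2 or 3, the counts were 2, 3 and 5, beside 0.217%, 0.739% and 0.671% of all genes. Under the other settings tried with all 6 dishes, 5 of the 10 were called higher at an FDR of 0.05, beside 1.48% of all genes with RLE factors, 2.4% with upper-quartile factors, 1.56% by DESeq2 and 1.49% by limma-voom. The share was 1.02% without a count filter, 1.5% with the replicate block, and 1.67% both at a mean of at least 5 CPM and with block and offset together. At an FDR of 0.01, 3 of the 10 were called, beside 0.139% of all genes. The offset without PD-L1 dish 3 gave 7, beside 7.77% of all genes.

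**Figure D3:**
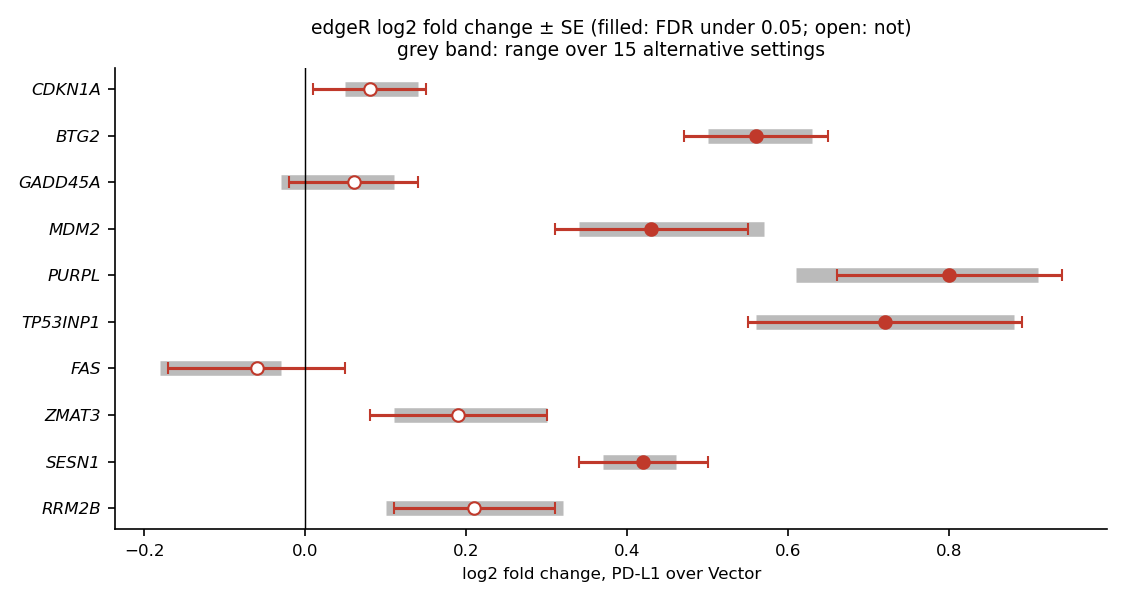
edgeR log2 fold change of PD-L1 over Vector dishes (horizontal axis, point with SE) for each gene, filled where past an FDR of 0.05, with the range over 15 alternative settings as a grey band. The bands of PURPL (0.61 to 0.91), TP53INP1, BTG2, MDM2 and SESN1 lie above 0, as do those of CDKN1A (0.05 to 0.14), ZMAT3 (0.11 to 0.30) and RRM2B (0.10 to 0.32), which were not called. Those of GADD45A (-0.03 to 0.11) and FAS (-0.18 to -0.03) lie near or below it.

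PD-L1 dish 3 was the lowest of its group for all 5 called genes and for FAS, ZMAT3 and RRM2B, and the highest for CDKN1A and GADD45A. The median of the 10 genes relative to the Vector mean was 0.41, 0.37 and 0.18 on the log2 scale in PD-L1 dishes 1 to 3, and -0.05, -0.01 and 0.07 in Vector dishes 1 to 3. GC content moved with the calls over all genes: the median of the longest transcripts was 42% in genes called higher and 53.5% in genes called lower, beside 48.4% over all tested. PURPL (35.8%), TP53INP1 (39.6%), MDM2 (41.9%) and SESN1 (43.4%) were below that median, and BTG2 (50.3%) above it. RRM2B (36.4%), FAS (39.1%) and ZMAT3 (39.5%) were also GC-poor and were not called. CDKN1A (58.1%) and GADD45A (51.5%) were above the median over all tested genes and were not called either. The part of GC content in these differences was not tested. With the offset, under which calls over all genes went from 1384 to 2110, all 5 genes were still called. They had log2 fold changes of 0.62 for PURPL, 0.66 for TP53INP1, 0.55 for BTG2, 0.42 for MDM2 and 0.37 for SESN1.

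Levels per kilobase of annotated exon (CPM per kb, exon lengths from GENCODE 29) differed widely among the genes. In PD-L1 dishes CDKN1A had 60.7 ± 2.55 and GADD45A 59.4 ± 6.11 CPM per kb (mean ± SD, n = 3), and these neighbours were not apart beyond their spread. They were followed by BTG2 at 26.1 ± 2.53, MDM2 at 14.5 ± 2.63 and RRM2B at 13.1 ± 1.77, where MDM2 and RRM2B overlapped. SESN1 had 8.22 ± 0.455, PURPL 5.85 ± 0.874, ZMAT3 5.66 ± 0.771, FAS 2.77 ± 0.129 and TP53INP1 2.03 ± 0.452 CPM per kb, where PURPL and ZMAT3 overlapped. The most abundant pair, CDKN1A and GADD45A, belongs to the genes that were not called.

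In Vector dishes the order was nearly the same. CDKN1A had 57.3 ± 2.72 and GADD45A 57.0 ± 1.61 CPM per kb, and again overlapped. BTG2 followed with 17.7 ± 0.901, then RRM2B with 11.3 ± 0.851 and MDM2 with 10.7 ± 0.986, which overlapped. SESN1 had 6.16 ± 0.3, ZMAT3 4.97 ± 0.476, PURPL 3.38 ± 0.491, FAS 2.89 ± 0.0896 and TP53INP1 1.24 ± 0.168 CPM per kb. Here PURPL overlapped FAS and was apart from ZMAT3. Exons of MDM2 overlap those of the carboxypeptidase M gene on the opposite strand, which had 71 to 96 counts in PD-L1 dishes and 58 to 70 in Vector dishes. FAS overlaps ACTA2 on the opposite strand, with 84 to 90 counts in PD-L1 dishes and 59 to 97 in Vector dishes. Reads carry no strand information with this library kit, and the share of each partner in the overlap is unknown.

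A list of 71 other p53 targets, grouped by role, gave 65 tested genes, of which 3 were higher and 4 lower. That is 4.62% higher beside 1.55% of all genes, and 6.15% lower beside 7.2% of all genes. Their median log2 fold change was 0.08. A further 4 were below the count filter, and DUSP14 and PANDAR had no matching ID. Without PD-L1 dish 3 the list had 13 higher (19.7%, beside 7.81% of all genes) and 9 lower (13.6%, beside 13.8%) of 66, together 33.3% beside 21.6%. With the GC and length offset it had 9 higher (13.8%, beside 4.08%) and 5 lower (7.69%, beside 9.26%) of 65, together 21.5% beside 13.3%. These shares are a description of the list.

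**Figure D4:**
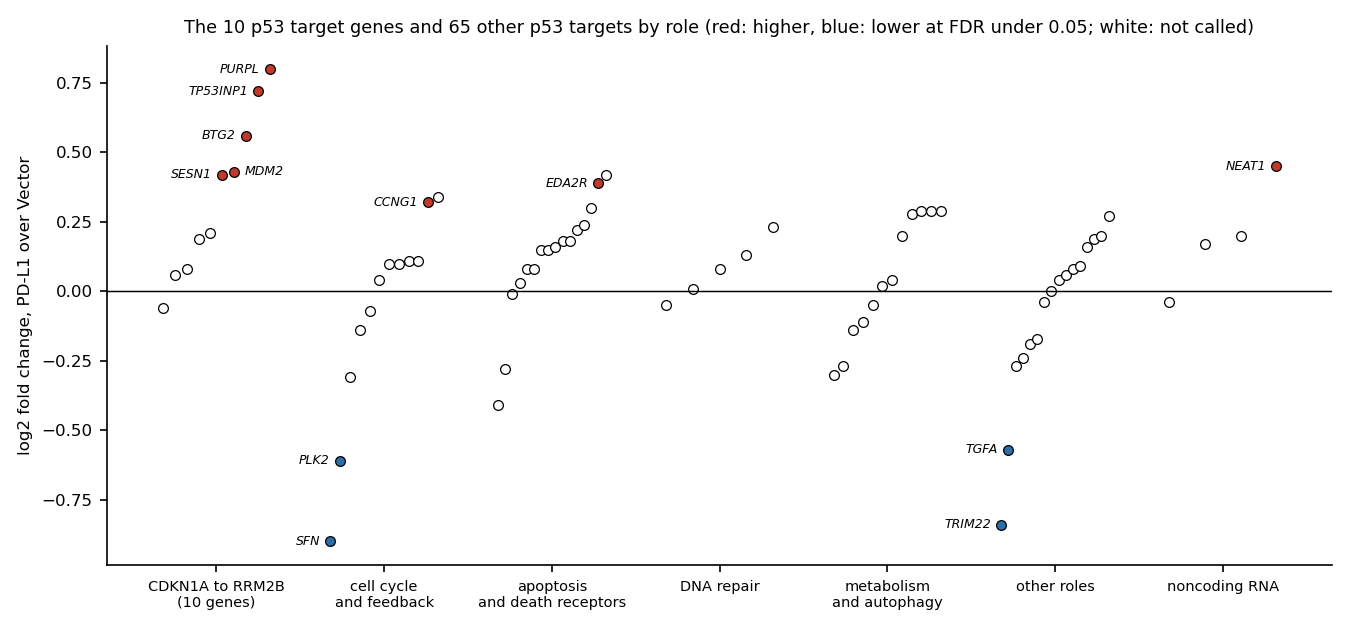
log2 fold change of PD-L1 over Vector dishes (vertical axis) for the 10 genes at the left and the 65 other tested p53 targets by role, each point a gene, red or blue where called higher or lower at an FDR of 0.05 and white where not called. NEAT1 (0.45) is the highest of the called genes outside the 10, and SFN (-0.90) the lowest.

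In the cell cycle and feedback group of 12 tested genes, CCNG1 rose, and PLK2 and SFN fell. That is 8.33% higher and 16.7% lower, beside 1.55% and 7.2% of all genes. Without PD-L1 dish 3 the group had 2 higher (16.7%, beside 7.81% of all genes) and 3 lower (25.0%, beside 13.8%). CCNG1, cyclin G1, which recruits a phosphatase to MDM2, was at 136, 128 and 125 CPM in PD-L1 dishes, against 94.2, 108 and 109 CPM in Vector dishes (log2 fold change 0.32 ± 0.08, edgeR adjusted p = 0.0246). The groups were apart, but the call ended when Vector dish 1 or 3, or 1 of PD-L1 dishes 1 and 2, was left out (log2 fold changes of 0.25 to 0.34). The offset lowered the value to 0.19 ± 0.05, still called, and with offset and replicate block together the call was lost (0.19 ± 0.07, edgeR adjusted p = 0.114). PLK2, a polo-like kinase, was at 37.4, 37.2 and 38.3 CPM in PD-L1 dishes, against 54.2, 59.4 and 59 CPM in Vector dishes (-0.61 ± 0.08, adjusted p = 4.12e-04). It was lower in every PD-L1 dish, and the call was kept without any 1 dish.

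SFN, the 14-3-3 sigma protein that holds cells in G2, was at 22.2, 22.6 and 38.8 CPM in PD-L1 dishes, against 55.8, 54.5 and 45.4 CPM in Vector dishes (-0.90 ± 0.20, adjusted p = 0.0275). PD-L1 dish 3 was nearest to the Vector group. The call was lost without PD-L1 dish 1 or 2 (-0.75 and -0.77). The 2 most abundant genes of the group that were not called were PHLDA3 and TRIAP1, with log2 fold changes of -0.07 ± 0.11 and 0.11 ± 0.09.

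Of 16 tested genes of apoptosis and death receptors, EDA2R alone was called (6.25% higher, beside 1.55% of all genes). Without PD-L1 dish 3 the group had 5 higher and 1 lower of 17 (29.4% and 5.88%, beside 7.81% and 13.8% of all genes). With the offset it had 5 higher and 1 lower of 16 (31.2% and 6.25%, beside 4.08% and 9.26%). EDA2R, a receptor of the tumour necrosis factor family, was at 33.5, 30.2 and 27.5 CPM in PD-L1 dishes, against 22, 21.5 and 26.5 CPM in Vector dishes (0.39 ± 0.11, adjusted p = 0.0386). The groups were just apart, and the call ended when any 1 dish numbered 1 or 2 was left out (0.31 to 0.39). The abundant PMAIP1, which encodes the BH3-only protein NOXA, and AEN, an apoptosis-enhancing nuclease, had log2 fold changes of 0.18 ± 0.08 and 0.15 ± 0.07 and were not called.

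Of 4 tested noncoding targets 1 rose (25.0%, beside 1.55% of all genes). This was NEAT1, the scaffold RNA of nuclear paraspeckles. It was at 213, 208 and 177 CPM in PD-L1 dishes, against 135, 144 and 158 CPM in Vector dishes (0.45 ± 0.09, adjusted p = 0.0059). All PD-L1 dishes were higher, and the call was kept without any 1 dish. TP53TG1 and PVT1 were not called (-0.04 ± 0.16 and 0.20 ± 0.14).

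In the group of other roles, 2 of 16 tested genes fell and 0 rose. That is 12.5% lower, beside 7.2% of all genes, and 0% higher, beside 1.55%. Leaving out PD-L1 dish 3 gave 3 higher and 4 lower (18.8% and 25.0%, beside 7.81% and 13.8% of all genes). The offset gave 1 higher and 2 lower (6.25% and 12.5%, beside 4.08% and 9.26%). TRIM22, an interferon-inducible antiviral gene, was at 2.39, 2.65 and 1.82 CPM in PD-L1 dishes, against 4.1, 3.91 and 4.25 CPM in Vector dishes (-0.84 ± 0.19, adjusted p = 0.0127). Its call was lost without Vector dish 1 (-0.84). TGFA, a ligand of the epidermal growth factor receptor, was at 8.2, 9.24 and 7.28 CPM in PD-L1 dishes, against 13.3, 9.92 and 13.4 CPM in Vector dishes (-0.57 ± 0.15, adjusted p = 0.0265). Leaving out Vector dish 1 (-0.50), Vector dish 3 (-0.51) or PD-L1 dish 1 (-0.57) ended this call. PLXNB2 and FBXO22, the most abundant not called, had log2 fold changes of -0.24 ± 0.09 and 0.20 ± 0.07.

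Among 5 DNA repair targets and 12 of metabolism and autophagy, edgeR, DESeq2 and limma-voom each called 0. At an unadjusted p under 0.05 in edgeR there were 1 (20.0%) and 4 (33.3%), beside 23.6% of all genes. Without PD-L1 dish 3, 1 repair target was higher (20.0%, beside 7.81% of all genes). In that fit 1 metabolic target was higher and 1 lower (8.33% each, beside 7.81% and 13.8%). With the offset 1 repair target was higher (20.0%, beside 4.08%). The abundant repair genes PCNA, the replication clamp, and XPC, the damage sensor of nucleotide excision repair, had log2 fold changes of 0.01 ± 0.07 and 0.23 ± 0.08. Of the metabolic genes, SESN2 and the carboxylesterase CES2 had -0.11 ± 0.07 and -0.05 ± 0.08.

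Most regulators of p53 were not called. MDM4, the partner of MDM2 in restraining p53, had 40, 45.2 and 34.5 CPM in PD-L1 dishes, against 29.2, 33.7 and 34.6 CPM in Vector dishes (0.29 ± 0.11, edgeR adjusted p = 0.106). PD-L1 dish 3 was within the Vector range, as for MDM2. MYBBP1A, the binding partner of PURPL, had 222, 241 and 235 CPM in PD-L1 dishes, against 260, 263 and 269 CPM in Vector dishes. It was lower in each PD-L1 dish but did not pass the test (-0.18 ± 0.07, adjusted p = 0.126).

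Of 18 regulators tested, 1 rose and 1 fell, each 5.56%, beside 1.55% and 7.2% of all genes, and their median log2 fold change was -0.01. CHEK2, a kinase that phosphorylates p53 after DNA breaks, was at 38.8, 36.2 and 37.2 CPM in PD-L1 dishes, against 30.5, 28.8 and 31.7 CPM in Vector dishes (0.30 ± 0.08, adjusted p = 0.0366). TP73, a p53 relative that binds similar sites, was at 19.3, 18.9 and 21.3 CPM in PD-L1 dishes, against 26.7, 24.6 and 26.3 CPM in Vector dishes (-0.38 ± 0.09, adjusted p = 0.0209). Both pairs of groups were apart. CHEK2 lost its call when any 1 dish other than PD-L1 dish 3 was left out (0.27 to 0.33), without a count filter (0.29) and with the replicate number as a block (0.30). TP73 lost it when Vector dish 1 or 3, or 1 of PD-L1 dishes 1 and 2, was left out (-0.38 to -0.35), and with the offset, alone or with the replicate block (-0.23 in both). Without PD-L1 dish 3, 4 regulators were higher (22.2%, beside 7.81% of all genes) and 2 lower (11.1%, beside 13.8%). With the offset, 4 were higher (22.2%, beside 4.08%) and 1 lower (5.56%, beside 9.26%). The abundant PRKDC and CDKN2A had log2 fold changes of -0.03 ± 0.11 and 0.14 ± 0.09. CDKN2A was at 234 to 306 CPM in PD-L1 dishes and 233 to 240 CPM in Vector dishes.

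Paralogs of the 10 genes were not called. Of 12 tested relatives, edgeR, DESeq2 and limma-voom each called 0, with 3 (25.0%) at an unadjusted p under 0.05 in edgeR, beside 23.6% of all genes, and a median log2 fold change of 0.01. Beside SESN1, its paralog SESN2 was at 140, 155 and 152 CPM in PD-L1 dishes, against 162, 158 and 163 CPM in Vector dishes (-0.11 ± 0.07, adjusted p = 0.380). Beside RRM2B, the cell-cycle subunit RRM2 was at 232, 252 and 233 CPM in PD-L1 dishes, against 274, 285 and 273 CPM in Vector dishes (-0.21 ± 0.07, adjusted p = 0.0797). Both were lower in each PD-L1 dish without passing the test. Without PD-L1 dish 3, 2 of the 12 were higher and 2 lower (16.7% each, beside 7.81% and 13.8% of all genes), and with the offset 1 was higher and 1 lower (8.33% each, beside 4.08% and 9.26%).

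Genes that p53 represses through p21 and the DREAM complex were also examined. Of 16 tested genes of mitosis and proliferation, edgeR, DESeq2 and limma-voom each called 0, with 4 (25.0%) at an unadjusted p under 0.05 in edgeR, beside 23.6% of all genes, and a median log2 fold change of -0.04. TOP2A, the mitotic topoisomerase, had 0.07 ± 0.08 and the cell-cycle transcription factor MYBL2 -0.05 ± 0.08. When PD-L1 dish 3 was left out, 1 was higher and 2 were lower, and the GC and length offset gave the same counts. Both make 18.8% of the list, beside 21.6% of all genes without PD-L1 dish 3 and 13.3% with the offset.

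The genes most like PURPL over the 6 dishes were sought among 11257 genes with a symbol and a mean of at least 5 CPM. By Pearson correlation of log2 CPM they were N4BP2L2 (r = 0.999), TBC1D32 (0.998), CEP290 (0.998), PPIG (0.996) and ZNHIT6 (0.996). None of the 5 is on the lists of p53 targets used here, and their log2 fold changes were 0.19 to 0.49. Their longest transcripts had a GC content of 34.8 to 37.8%, close to the 35.8% of PURPL. Among the other 9 genes, SESN1 was nearest to PURPL (r = 0.985, rank 29), followed by TP53INP1 (0.953, rank 224), BTG2 (0.949, rank 253) and MDM2 (0.910, rank 607). RRM2B (0.848, rank 1156) and ZMAT3 (0.577) lay between these and the rest. CDKN1A (0.323), GADD45A (-0.0639) and FAS (-0.433) were far from it. With 6 dishes in 2 groups, 714 genes reached an r of 0.9, so these values are a description of the 6 dishes.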

How the data were processed

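Poly-A RNA of 6 U251 dishes was sequenced after NEBNext Ultra preparation from 3 µg of total RNA. Per the submitters' processing notes, CASAVA 1.8, STAR 2.5.1b and HTSeq 0.6.0 were used with build hg19. The annotation and strand option of that step are not stated in what was used here. Values are raw counts, deposited by the authors for each Ensembl gene and dish. Their normalized table was not used. Symbols came from a gene name table (51996 IDs) and GENCODE 29 (342 IDs), and 5435 IDs had none. GENCODE 29 is on GRCh38 and gave names, biotypes, exon lengths, GC content and overlaps.

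Groups and replicate numbers came from sample titles. Counts were filtered (filterByExpr), TMM-scaled and tested with robust glmQLFit and glmQLFTest (edgeR 4.0.16, R 4.3.3, no covariates), with Benjamini-Hochberg adjustment over 15818 genes. Standard errors came from the fold change and F statistic. A log2 fold change is PD-L1 over Vector. The script was tested on simulated counts. Alternatives used DESeq2 1.42.0, limma 3.58.1 (voom), other scalings and filters, a replicate block, left-out dishes, an FDR of 0.01, and splines (5 degrees of freedom) of GC content and transcript length per dish, known for 97.6% of tested genes. Combining the offset with leaving out PD-L1 dish 3 was chosen after seeing the data.

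The 10 genes and all lists were chosen with earlier results of these data known. Named are the 10 genes, CD274, MDM4 and MYBBP1A, the called genes of each list, its 2 most abundant genes not called, and the 5 genes most correlated with PURPL. A further gene of this rule is not reported here. A count of 3 corresponded to 0.138 to 0.185 CPM. An exact permutation test of 3 dishes against 3 cannot go below p = 0.1, so none is given. Tables and plots used Python 3.11.15, pandas 2.3.3 and matplotlib 3.10.9.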

Additional observations from a re-analysis of the deposited data

How the results depend on the processing

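Over the alternatives other than left-out dishes, the 10 p53 target genes had 5 calls, all higher, beside 1.02% to 4.08% of all genes. The exception was an FDR of 0.01 (3 calls, beside 0.139%). Leaving out 1 dish gave 2 calls (Vector dish 1, beside 0.217% of all genes called higher) to 7 calls (PD-L1 dish 3, beside 7.81%). None of the 5 called genes changed direction under any alternative. The offset combined with leaving out PD-L1 dish 3 gave 7 calls, beside 7.77% of all genes called higher. Among them were CDKN1A (0.17 ± 0.05) and RRM2B (0.18 ± 0.06). Unscaled CPM moved the group means of the 10 genes by less than 1 SD.

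Over all genes, calls numbered 1384 of 15818 tested (8.75%), against 2110 of 15818 (13.3%) with the GC and length offset. They numbered 3488 of 16272 with the offset and without PD-L1 dish 3, and 1904 of 33317 without a count filter. At an FDR of 0.01 they numbered 530 of 15818. With 1 dish left out they ranged from 545 of 16150 to 3512 of 16272 (21.6%). The other p53 targets had 7 calls of 65 (3 higher, 4 lower), against 11 of 69 without a count filter (3 higher, 8 lower). They had 14 of 65 with the offset (9 higher, 5 lower). With the offset and without PD-L1 dish 3 they had 22 of 66 (15 higher, 7 lower). At an FDR of 0.01 they had 2 of 65, and with 1 dish left out 3 of 65 to 22 of 66. The regulators had 2 calls of 18, against 5 with the offset (4 higher, 1 lower). With the offset and without PD-L1 dish 3 they had 7 (6 higher, 1 lower). They had 0 at an FDR of 0.01, and 0 to 6 with 1 dish left out. The paralogs had 0 calls of 12, against 2 with the offset (1 higher, 1 lower). With the offset and without PD-L1 dish 3 they had 3 (1 higher, 2 lower), and with 1 dish left out 0 to 4. The genes repressed through p21 and DREAM had 0 calls of 16, against 1 without a count filter (lower) and 3 with the offset (1 higher, 2 lower). With the offset and without PD-L1 dish 3 they had 5 (1 higher, 4 lower), and with 1 dish left out 0 to 3. The cause was not tested.

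With the replicate number as a block, 1447 of 15818 genes were called, the 10 genes kept 5 calls, and the regulators had 1 of 18. With the block and the offset, the paralogs had 1 call of 12, beside 1282 of 15818 genes. The block moved no other list by over 1.5 times. Deviations from the group mean correlated at -0.212, -0.0512 and -0.192 between dishes with the same number. Between dishes with different numbers the correlations were -0.0766 to 0.232. With means of only 3 dishes, these values cannot tell whether the numbers pair the dishes by culture or preparation.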
